A study of Mus musculus with 14 samples.

Results

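The data describe the last interval of an mRNA decay experiment in 3T3 cells, a mouse fibroblast line: the change of each mRNA 3' end between 4 h and 8 h of actinomycin D. The members are the 8481 poly(A) sites, of 33590 in the table, that pass the filter of the authors' deposited table and hold at least 40 counts at 4 h. They are 47.2% of the 17970 sites that pass that filter, and they hold 97.45% of the counts at 8 h and 96.9% at 4 h. The study asked how the choice between the 3' ends of an mRNA goes with its stability and its translation. Its poly(A) sites were counted by 2P-Seq: RNA with a tail was selected, cut with RNase T1, copied from the tail and sequenced from the tail inwards. The libraries compared here come from cells treated with 10 µg/ml actinomycin D for 8 h and from cells treated for 4 h, with the 1 h and 2 h libraries of the same course and the steady-state control 1 and control 2 beside them. All of them are 3T3 cells.

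Actinomycin D blocks transcription, so that mRNAs made earlier decay without being replaced. A transcript can end at any of several poly(A) sites, and a proximal site, closer to the stop codon, leaves out sequence that a distal site includes, where binding sites for proteins and microRNAs can lie. Long-lived mRNAs come to dominate the remaining pool late in such a course, while short-lived ones have mostly left it earlier.

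Each time has 1 library, so the spread between libraries was taken from the 2 controls alone, and the 8 h and 4 h libraries were assumed to vary like them. Nothing says that the controls are separate cultures, so p-values measure only the spread between these libraries, which may be technical. The 8 h library held 4045420 counts and the 4 h library 5048797, while the other 4 held between 5843403 and 6433503. The authors give 1 factor per library by which counts are to be divided, 0.791 at 8 h and 0.883 at 4 h. After that division the 8 h library totalled 5114424 and the 4 h library 5716943, a total lower at 8 h by 10.54%. In bulk RNA, fewer cells and less RNA per cell cannot be told apart. Scaled count below means the count divided by the authors' factor, and every ratio uses it. Intervals on ratios are exact 95% binomial intervals, and like the intervals on shares they cover counting error only, since reads copied by PCR are not independent molecules and no molecular identifiers are mentioned. No annotation of the mm9 build was used, so ends are given by position and strand and without gene names.

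On the scale of the authors' factors, most 3' ends stood lower at 8 h than at 4 h, and few of them steeply so. The median member stood at 0.736 of its 4 h level at 8 h, a loss of 26.4% in 4 h, which read as an exponential is a half-life of 9.06 h. This loss depends on the scaling: on the log2 scale the median 8 h over 4 h ratio was -0.44 with the authors' factors, -0.03 with TMM and 0.0077 with DESeq2's size factors. With the authors' factors the middle 50% of ends lay between -0.89 and -0.07, and the SD over ends was 0.68. Control 1 over control 2 gave a median of -0.05 with an SD of 0.48 over the same ends, so part of this width is also found between the 2 controls. In the earlier interval of equal length, 4 h over the mean of the controls, the median was -0.31 with an SD of 0.91, a loss of 19.1%. Members are required to be counted at 4 h, which can raise the early ratio and lower the late one. The part of this selection in the 2 losses was not tested. Ends just inside and just outside that limit had low late ratios: the 474 members with 40 to 44 counts had a median of -0.79. The 491 sites with 35 to 39 counts had a median of -0.62. By chromosome the medians ran from -0.51 on chromosome 19 to -0.32 on chromosome X.

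**Figure D1:**
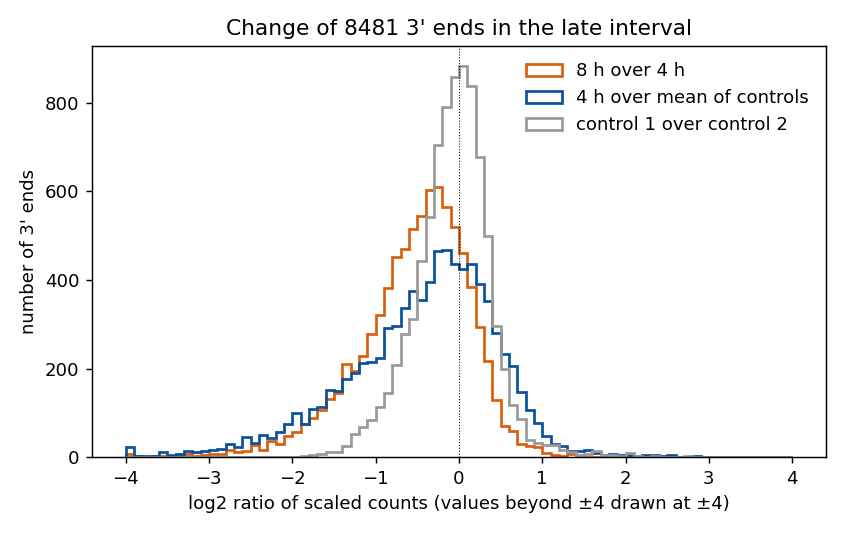
Number of 3' ends (vertical axis) by log2 ratio of scaled counts (horizontal axis) for 8 h over 4 h, 4 h over the mean of the controls, and control 1 over control 2, over the 8481 members. The late distribution is centred at -0.44 and its upper side drops off near that of the 2 controls, while its lower side is wider.

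A scaled count at least 2-fold lower at 8 h than at 4 h was found for 1769 members, 20.9%, where 30.1% of the 17723 sites in the fit did so. At least 4-fold lower were 254 members. Within 1.5-fold of their 4 h level were 4833 members, 57.0%. A scaled count above that at 4 h was held by 1728 members, 20.4% against 25.7% of the sites in the fit. Taking reads as independent, the counting interval lay below 1 for 4818 members and above 1 for 671. The same interval for control 1 over control 2 lay below 1 for 2568 members and above 1 for 1831, so counting error is smaller than the spread between libraries.

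Tested against that spread, 958 members fell and 8 rose (edgeR quasi-likelihood test, Benjamini-Hochberg adjusted p under 0.05). Of the members 11.3% fell, against 7.96% of all 17723 sites in the fit, and 0.0943% rose, against 0.0959%, so the share of members that rose is that of the sites at large. The split depends on the scaling: 46 rose and 230 fell with TMM, and 48 rose and 190 fell with DESeq2's size factors. The values that follow are on the scale of the authors' factors. A fit of 2 straight lines with both controls called 676 members as falling. Without control 2, in a fit of 2 straight lines, 204 members fell, and without control 1 in the same fit 1150 did.

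The 958 falling ends had a median scaled count of 44.3 at 8 h and 137 at 4 h, and of 389 in the controls. Their median late log2 ratio was -1.62, and their median log2 ratio of 4 h over the controls was -1.23. Of 1983 members at least 2-fold down by 4 h, 593 fell late (29.9%), against 333 of 3645 members down by less (9.14%) and 32 of 2853 members not down by 4 h (1.12%). Across the 8481 members, the late ratio followed the early one (Pearson r 0.50, Spearman rho 0.51). Both ratios use the 4 h library, in opposite places, and ends are not independent replicates, so this is a description only.

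Among ends with at least 200 counts at 4 h, the 8 whose 8 h over 4 h ratio had the lowest upper limit all fell. An end on chromosome 9 (plus strand, 64143873, mm9) had the lowest ratio of these. It held 174 and 155 counts in the controls and 511, 636, 333 and 32 at 1, 2, 4 and 8 h. Its level at 8 h was 0.107 of that at 4 h (interval 0.0722 to 0.154), a log2 change of -3.22 ± 0.42 (SE, edgeR quasi-likelihood test, adjusted p = 1.13e-06). This end stood above both controls at 1, 2 and 4 h, and below both at 8 h. The authors' deposited table gives it 0.17 ribosomes per mRNA, where the median over members is 6.48. Its edgeR call was lost in the fit of 2 straight lines, with both controls (adjusted p = 0.137) and without either. That fit takes its spread also from departures from the lines, and this end rose before it fell. With the other scalings and with DESeq2 the adjusted p of this end ran from 2.59e-06 to 0.000121.

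The other 7 began high and lost ground at each step after 1 h. An end on chromosome 15 (plus strand, 78860927) held 2934 and 3010 counts in the controls and 1930, 1185, 437 and 65 at 1, 2, 4 and 8 h. Its level at 8 h was 0.166 of that at 4 h (interval 0.126 to 0.216), a log2 change of -2.59 ± 0.34 (SE, edgeR adjusted p = 1.13e-06). Its loss over the first 4 h, -2.64 on the same scale, was of the same size (edgeR adjusted p of the difference 0.996). On chromosome 10, an end on the minus strand at 117251599 held 685 and 820 counts in the controls and 709, 595, 261 and 36 at 1, 2, 4 and 8 h. The log2 change was -2.70 ± 0.39 late (edgeR adjusted p = 7.11e-06) against -1.39 before 4 h, and the difference between the intervals was not called (edgeR adjusted p = 0.35). The chromosome 14 end (minus strand, 32993362) held 766 and 730 counts in the controls and 895, 750, 355 and 64 at 1, 2, 4 and 8 h, so that it left the control level only after 2 h. The ends on chromosome 11 (plus strand, 51936112), chromosome 10 (minus strand, 62042995), chromosome 13 (minus strand, 34166150) and chromosome 2 (minus strand, 25077681) stood at 0.184, 0.196, 0.217 and 0.249 of their 4 h level. All 7 stayed below an adjusted p of 0.05 under every alternative tried, the highest being 0.0269. The authors' deposited table gives these 7 ends between 4.86 and 8.83 ribosomes per mRNA.

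**Figure D2:**
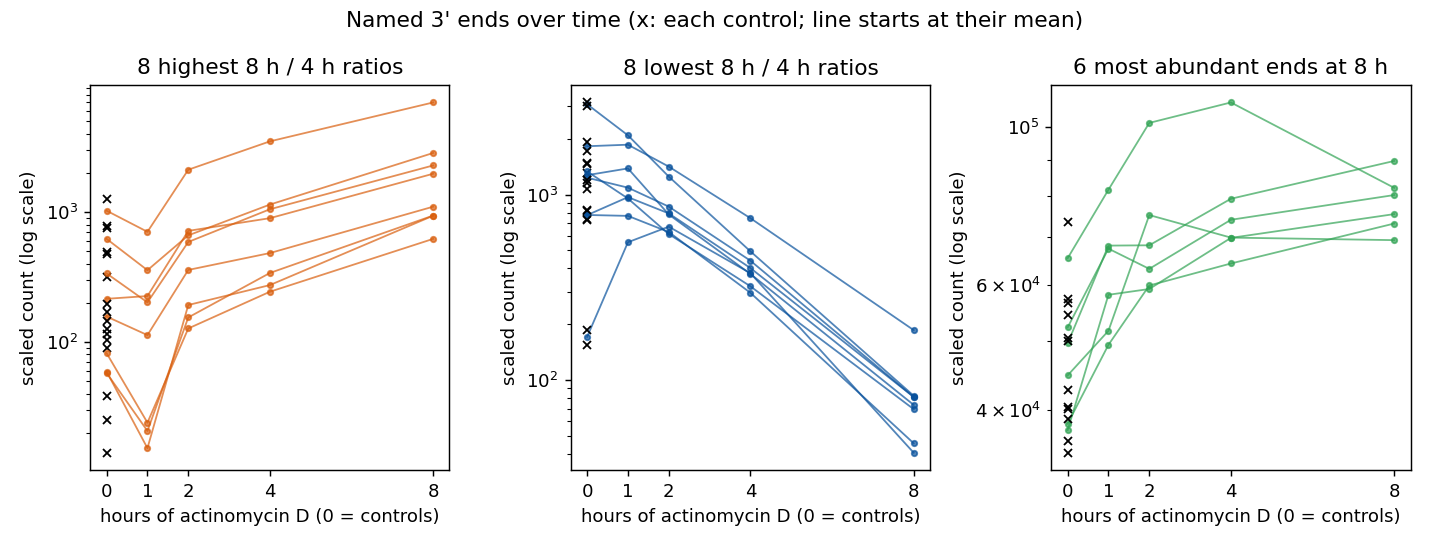
Scaled counts on a log axis against hours of actinomycin D for the named ends. Points are libraries, crosses the 2 controls, and lines join the times from the mean of the controls. The 8 highest ends dip or stay low at 1 h and climb to 8 h, the 8 lowest drop through 4 h to 8 h, and the 6 most abundant are flat late, except 1 that is lower at 8 h than at 4 h.

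The counts gathered in fewer ends. The 100 most abundant members of each library held 26.2% and 24.7% of the member counts in control 1 and control 2 and 27.7%, 31.2%, 34.5% and 38.8% at 1, 2, 4 and 8 h. The Wilson 95% intervals were 38.7 to 38.8% at 8 h and 34.47 to 34.55% at 4 h, and the difference of the late interval was larger than that between the 2 controls. Thinned to the total of the 8 h library, the 4 h library still gave 34.55%. The 10 most abundant ends took 13.3% at 8 h and 11.7% at 4 h, and the 1000 most abundant took 74.8% at 8 h and 70.2% at 4 h. It took 225 ends to reach 50% of the member counts at 8 h, 307 ends at 4 h, and 564 and 616 ends in control 1 and control 2. The effective number of ends, the exponential of the Shannon entropy of their shares, was 1432 at 8 h, 1815 at 4 h, and 2741 and 2936 in control 1 and control 2. Over the whole table, 20157 sites had any count at 8 h and 22908 at 4 h after thinning to the same total.

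**Figure D3:**
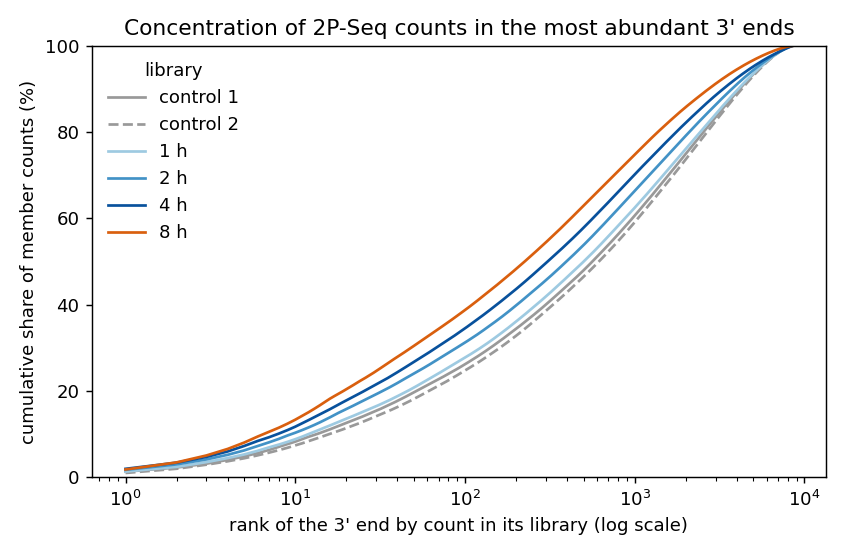
Cumulative share of member counts (percent) by rank of the 3' end in its library (log axis), 1 line per library. At rank 100 the lines stand in order of time, the 8 h library on top and the controls at the bottom: the first 100 ends hold 38.8% at 8 h and 34.5% at 4 h.

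Much the same ends stood at the head of the library at both times. Of the 100 most abundant ends at 8 h, 91 were among the 100 most abundant at 4 h, where 90 of 100 were shared between the 2 controls, and 77 were in the head of control 1. The 100 most abundant ends were also chosen by the controls, which the late ratio does not use. Their summed scaled count was 1834752 at 8 h and 1845468 at 4 h, a ratio of 0.994, while the sum of all other members was 3149200 at 8 h and 3693968 at 4 h, a ratio of 0.853. By count at 4 h, the median late log2 ratio was -0.17 for the 883 members with at least 1000 counts, -0.34 for the 1687 with 300 to under 1000, -0.48 for the 2724 with 100 to under 300, and -0.63 for the 3187 with 40 to under 100. That order uses the 4 h count, which is also the base of the ratio. By quartile of the control level, which is not, the medians were -0.35, -0.52, -0.52 and -0.37, low to high, with no order. The minimum of 40 counts at 4 h still bears on these quartiles, since ends low in the controls pass it more readily if they had not fallen. The median early log2 ratio by the same quartiles was 0.04, -0.60, -0.59 and -0.22. The part of this selection in the late medians was not tested.

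The 6 most abundant ends at 8 h carried between 54851 and 70867 counts there. The first was on chromosome X (minus strand, 163645025), with 39804 and 56558 counts in the controls and 62829, 64511, 70012 and 70867 at 1, 2, 4 and 8 h. Its scaled level at 8 h was 1.13 times that at 4 h, a log2 change of 0.18 ± 0.29 (SE, edgeR adjusted p = 0.775). Ends on chromosome 3 (plus strand, 90409962), chromosome 15 (plus strand, 78760623) and chromosome 7 (plus strand, 13512033) stood at 1.08, 1.08 and 1.14 times their 4 h level. A further end on chromosome 3 (plus strand, 90418335) stood at 0.992. The end on chromosome 19 (minus strand, 34316013) stood apart, with 68469 and 57297 counts in the controls and 75282, 95850, 95614 and 64969 at 1, 2, 4 and 8 h. It had led the library at 4 h and was at 0.759 of that level at 8 h (edgeR log2 change -0.40, adjusted p = 0.437). None of the 6 passed the test, and on the log2 scale all 6 were above the mean of the controls at 4 h, by 0.50 to 0.90.

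The gradient gives these ends a second readout that the choice of members did not use. In the authors' deposited table the median was 5.28 ribosomes per mRNA for the 100 most abundant ends at 8 h and 6.48 for all members. By quartile of ribosomes per mRNA, with medians of 4.205, 5.85, 7.045 and 8.38 in the authors' deposited table, the median late log2 ratio was -0.27, -0.50, -0.53 and -0.48. The lowest quartile held 638 ends above their 4 h level at 8 h (30.1%), against 16.4%, 16.9% and 18.1% in the others, and 129 that fell by the edgeR test (6.08%), against 245, 286 and 298. The correlation over all members was weak (Pearson r -0.12, Spearman rho -0.12, 8481 ends of the same libraries). Differences between quartiles were not tested, since ends are not replicates.

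Ends called as rising were few, but on simulated data the test called only 3 of 50 rises of 1 on the log2 scale. The simulated ends did not decay and few of them were changed, so that share need not hold for the real fit. Of the 8 called, an end on chromosome 15 (minus strand, 98357614) held 66 and 29 counts in the controls and 16, 82, 175 and 577 at 1, 2, 4 and 8 h. Its level at 8 h was 3.68 times that at 4 h (interval 3.10 to 4.385), a log2 change of 1.88 ± 0.44 (SE, edgeR quasi-likelihood test, adjusted p = 0.00743). The rising end on chromosome X (plus strand, 132781642) held 18 and 15 counts in the controls and 7, 40, 82 and 276 at 1, 2, 4 and 8 h, a ratio of 3.76 (edgeR log2 change 1.91 ± 0.49 SE, adjusted p = 0.0092). A more abundant end on chromosome 2 (plus strand, 174172161) held 698 and 494 counts in the controls and 329, 626, 1009 and 2258 at 1, 2, 4 and 8 h. Its ratio was 2.50 (interval 2.32 to 2.69; edgeR log2 change 1.32 ± 0.32 SE, adjusted p = 0.00551).

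The most abundant of the 8, on chromosome 10 (minus strand, 128061617), held 1182 and 781 counts in the controls and 650, 2006, 3098 and 5534 at 1, 2, 4 and 8 h, a ratio of 1.99 (edgeR adjusted p = 0.0374). The others lay on chromosome 3 (plus strand, 102860995), chromosome 5 (minus strand, 108550876), chromosome 6 (minus strand, 36664968) and chromosome 9 (plus strand, 64026256), with ratios of 2.28, 2.82, 2.62 and 1.98. Of the 8, 6 lay within 2000 nt of a more abundant end on the same strand, which is so for 26.1% of all members. The end on chromosome X was 33 nt from one 17.9-fold more abundant, and that on chromosome 6 was 38 nt from one 103-fold more abundant. For the ends on chromosomes 3, 5, 9 and 10 the neighbour was more abundant by only 5.31-fold, 3.96-fold, 1.04-fold and 1.79-fold. All 8 were lowest in the 1 h library, which is so for 272 of the 8481 members, and control 1 was above control 2 in 7 of the 8, against 45.1% of members. The part of those library differences in the late rise was not tested. Each of the 8 lost its call under at least 1 alternative, with adjusted p up to between 0.117 and 0.364, and DESeq2 called 0 members as rising, with 7 at an unadjusted p under 0.05, while edgeR had 46 at that level. Without control 2, the fit of 2 straight lines called 0 as rising, with 27 at that level.

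Among ends with at least 200 counts at 4 h, 5 of the 8 whose ratio had the highest lower limit did not pass the test. The highest ratio of these, on chromosome 11 (minus strand, 97639649), was at an end that held 97 and 14 counts in the controls and 14, 182, 242 and 742 at 1, 2, 4 and 8 h. The ratio was 3.42 (interval 2.96 to 3.97), but the fitted log2 change of 1.77 had an SE of 1.79 (edgeR adjusted p = 0.706). On chromosome X (minus strand, 163645893), an end held 84 and 25 counts in the controls and 19, 146, 300 and 744 at 1, 2, 4 and 8 h, a ratio of 2.77 (edgeR adjusted p = 0.224). The other 3, on chromosome 9 (plus strand, 72595563) and chromosome 12 (minus strand, 76732023, and plus strand, 101445005), had ratios of 2.56, 2.20 and 2.18. At all 5, control 1 was more than 2-fold above control 2 on scaled counts. Their calls depended on the scaling: with DESeq2's size factors all 5 passed the edgeR test (adjusted p 3.22e-05 to 0.00229). With TMM all but the end at 97639649 passed (edgeR adjusted p 0.000961 to 0.00317). With library totals, DESeq2 or 2 straight lines none did.

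A position pattern was shared by the 35 members whose scaled count at 8 h was at least 2-fold that at 4 h, 0.413% of members. Of these, 30 (85.7%) lay within 2000 nt of a more abundant end on the same strand, against 26.1% of all members and 51.3% of the quartile of members with the lowest control counts. The less abundant end was upstream of that neighbour, toward the 5' side, in 29 of the 30, against 1282 of 2212 over all such members and 677 of 1089 in the lowest quartile. The distance ran from 23 to 1908 nt with a median of 137 nt, and 13 lay under 100 nt away. The neighbours were more abundant by a median of 24.98-fold. The neighbours themselves had a median late log2 ratio of 0.07 and 16 of 30 above their 4 h level. The end on chromosome X at 163645893 is an example, 868 nt upstream of the most abundant end at 8 h, at 163645025. In 30 of the 35 ends control 1 was above control 2, and in 20 the 1 h library was the lowest of all 6. These ends were grouped by the ratio itself and their position was examined after their values were seen, so no test was made. The part of the library differences in this pattern was not tested.

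The 2212 members that lay within 2000 nt of a more abundant end had a median late log2 ratio of -0.32, with 29.2% above their 4 h level and 151 fallen by the edgeR test (6.83%). The other 6269 members had a median of -0.48, with 17.3% above and 807 fallen (12.9%). By place in the locus, the median was -0.46 for ends alone in their locus, -0.45 for the first end, -0.41 for middle ends and -0.45 for the last. A locus here is a run of sites on 1 strand, each within 2000 nt of the next, and it can join neighbouring genes.

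Whether decay itself slowed down or sped up after 4 h was tested in the same fit, as the late log2 change minus the change over the first 4 h. The late change was above the early change for 49 members, called slower here, and below it for 10, called faster (edgeR adjusted p under 0.05), 0.578% and 0.118% of members, against 1.42% and 0.0846% of all sites in the fit. At an unadjusted p under 0.05 there were 306 and 279. The fit of 2 straight lines called 8 slower and 0 faster (357 faster at an unadjusted p under 0.05), and without control 2 it called 0 and 0, with 212 and 140 at that level. Most members thus gave no call of a changed rate, which does not show that the rate was constant. Members are chosen by their count at 4 h, which enters both changes, so the shares called slower and faster can depend on that choice. With a minimum of 80 counts over the controls instead, 248 of 12203 sites were called slower and 9 faster. How far the choice by the 4 h count bears on these shares was not tested.

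The 49 ends called slower had lost most of their counts before 4 h, a loss the test itself compares. Their median scaled count was 53.1 at 8 h, 72.5 at 4 h and 996 in the controls, with a median log2 change of -0.59 late and -3.52 early. The examples here were chosen after their values were seen. An end on chromosome 10 (plus strand, 21719705) held 7988 and 8166 counts in the controls and 640, 192, 107 and 47 at 1, 2, 4 and 8 h. Its late change was smaller than its early change by 5.08 on the log2 scale (edgeR adjusted p = 1.68e-08). Another, on chromosome 1 (minus strand, 156944657), held 2005 and 1905 counts in the controls and 134, 78, 53 and 51 at 1, 2, 4 and 8 h, so that its count was almost level from 4 h on. The rate difference was 5.18 (edgeR adjusted p = 2.12e-07), and its late change, 0.10 ± 0.39 on the log2 scale, could not be told from 0.

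The 10 ends whose late change was below their early change stood at 4 h above the controls by a median log2 ratio of 1.11, and 9 of them had a lower scaled count at 8 h than at 4 h. Their median scaled count was 49.3 at 8 h, 275 at 4 h and 134 in the controls. An end on chromosome 11 (plus strand, 68887064) held 11 and 8 counts in the controls and 159, 551, 525 and 264 at 1, 2, 4 and 8 h (rate difference -6.73, edgeR adjusted p = 1.89e-12). The authors' deposited table gives it 1.28 ribosomes per mRNA, and 0.17 to the end on chromosome 9 at 64143873, which is also among the 10, while the median of the 10 is 7.26, against 6.48 for all members. Chromosome 19 (plus strand, 46160017) gave an end with 144 and 132 counts in the controls and 174, 111 and 148 at 1, 2 and 4 h, and 13 at 8 h. The end at 23289656 on the plus strand of chromosome 9 held 109 and 140 counts in the controls and 79, 67 and 46 at 1, 2 and 4 h and 0 at 8 h, the only member with no count there. Its 8 h level was at most 0.0932 of that at 4 h by the upper limit of the exact interval. The end at 5795999 on the minus strand of chromosome 19 was called for a smaller rise, not a loss: it held 163 and 102 counts in the controls and 127, 522, 1345 and 2123 at 1, 2, 4 and 8 h (rate difference -2.64, edgeR adjusted p = 0.0016).

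**Figure D4:**
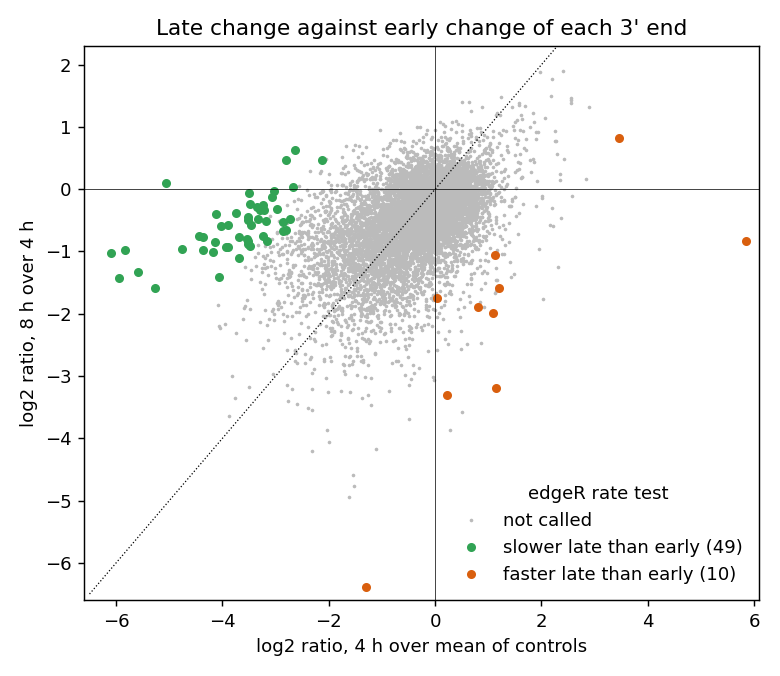
Late log2 ratio, 8 h over 4 h (vertical), against early log2 ratio, 4 h over the mean of the controls (horizontal), 1 point per member; the dotted line marks equal change in both intervals of 4 h. The 49 ends called slower late lie at the far left with early losses centred on -3.52, and the 10 called faster late lie below the dotted line.

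The last question is whether the balance between 2 ends of a locus moved in this interval. In 1520 loci the 2 members with most control counts lay within 2000 nt of each other and formed a pair, the end nearer the 5' side being proximal. No common direction was seen over all pairs: the distal over proximal ratio had a median log2 value of 0.10 at 8 h and 0.10 at 4 h, and the median of the differences was -0.03, with the middle 50% between -0.37 and 0.29. The distal share was lower at 8 h in 797 pairs and higher in 722. The same difference taken as control 1 minus control 2 had a median of -0.05 and was negative in 870 pairs, so the late median was closer to 0 than that between the 2 controls. Over the first 4 h the median was -0.10, with 61.5% of pairs lower. The late log2 ratio had a median of -0.34 for distal and -0.33 for proximal ends, and the 2 ratios were correlated (Pearson r 0.51, Spearman rho 0.53) over the 1520 pairs, within the same 2 libraries.

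By distance, the median late shift was -0.04 for the 611 pairs under 100 nt apart, -0.003 for the 412 pairs at 100 to under 500 nt and -0.02 for the 497 pairs at 500 to 2000 nt, against -0.03, -0.02 and -0.13 between the controls. Under 100 nt the distal share was lower at 8 h in 337 pairs and higher in 273. The counting interval of their odds ratio lay below 1 in 115 and above 1 in 55, against 87 and 51 between the controls. At 100 to under 500 nt the late intervals were 93 below and 83 above, and at 500 to 2000 nt 105 and 95. In the 312 pairs with at least 300 counts per end at 4 h the median late shift was -0.03, and -0.04 between the controls. The spread was wider than between the controls, with an SD of 0.62 against 0.52, and 96 pairs shifted at least 2-fold toward the proximal and 72 toward the distal end, against 66 and 18 between the controls. In 380 pairs the ends moved in opposite directions, 156 with the distal end above its 4 h level and 224 with the proximal end above it. No pair was called in either direction, which is 0% of pairs (edgeR quasi-likelihood test, lowest adjusted p = 0.559). On simulated data this test called 11 of 50 shifts of -1 and 7 of 50 shifts of 1 on the log2 scale. Most simulated shifts of that size were thus missed, so the lack of calls does not show that no pair shifted. At an unadjusted p under 0.05, edgeR had 65 pairs with a lower and 47 with a higher distal share, and DESeq2 also called 0, with 28 and 16 at that level. The SE of a pair's fitted shift had a median of 0.31 on the log2 scale.

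**Figure D5:**
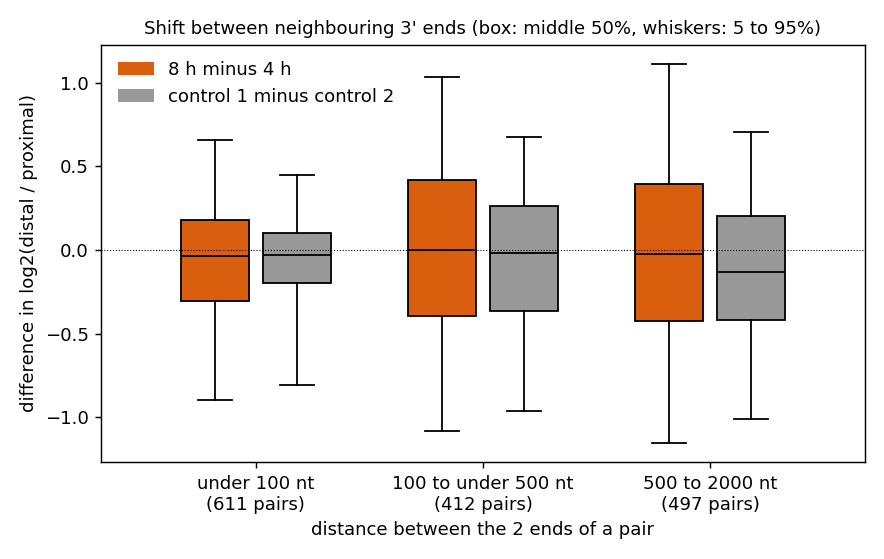
Difference in log2(distal / proximal) for 8 h minus 4 h and for control 1 minus control 2, in pairs of 3' ends grouped by the distance between them. The boxes span the middle 50% of pairs with a line at the median, the whiskers reach from 5 to 95%, and all late medians lie between -0.04 and 0.

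Among pairs with at least 100 counts per end at 4 h, 5 were named in each direction by the limit of the counting interval of their odds ratio nearest to 1, and none of them passed the test. Toward the proximal end, a pair on chromosome 17 (plus strand, 45703002 and 45704617) had a distal share of 57.0% and 47.3% in control 1 and control 2 and 47.2%, 34.6%, 27.5% and 7.75% at 1, 2, 4 and 8 h. Its distal end was at a late log2 ratio of -2.03 and its proximal end at 0.13, and the fitted shift was -2.17 ± 0.44 (SE, edgeR adjusted p = 0.559, 0.0175 before adjustment). This pair moved one way at every step from 1 h on. A pair on chromosome 18 (minus strand, 35064134 and 35062439) changed little before 4 h: its distal share was 49.9% and 48.5% in the controls and 44.4%, 42.8%, 43.1% and 18.7% at 1, 2, 4 and 8 h, a shift of -1.72 ± 0.23 (edgeR adjusted p = 0.559, 0.00491 before adjustment). On chromosome 10 (minus strand, 62044861 and 62042995) the distal end, 1 of the 8 named above for a low ratio, took the share to 17.0% at 8 h, against 39.7% at 4 h, with the proximal end at -0.66.

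Of the other 2 pairs, the chromosome 5 pair (minus strand, 108550876 and 108550661) holds a rising proximal end. Its distal share was 27.3% at 8 h and 52.9% at 4 h, but 55.0% in control 1 and 91.2% in control 2, so that the controls differed more than the late interval did. The chromosome X pair of 163645893 and 163645025 had 98.96% at 8 h and 99.57% at 4 h, a shift of -1.29 on the log2 scale, and 99.79% in control 1 and 99.96% in control 2, a difference of -2.24.

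Toward the distal end, a pair on chromosome 17 (plus strand, 29179056 and 29179832) had a distal share of 50.7% and 60.3% in control 1 and control 2 and 63.4%, 62.4%, 62.8% and 86.0% at 1, 2, 4 and 8 h. The fitted shift was 1.86 ± 0.43 (SE, edgeR adjusted p = 0.559, 0.0253 before adjustment), and it came from the proximal end, at -2.0, with the distal end at -0.15. A pair on chromosome 2 (plus strand, 34479433 and 34480459) stood at 78.5% at 8 h and 52.5% at 4 h, with 49.6% and 44.1% in control 1 and control 2, also through its proximal end at -1.99. The remaining 3, on chromosome 11 (plus strand, 20125457 and 20126857), chromosome 10 (minus strand, 80364108 and 80362656) and chromosome 15 (minus strand, 38419549 and 38417938), stood at 49.7%, 85.2% and 83.4% at 8 h, against 27.7%, 69.4% and 63.3% at 4 h. In all 5 of these pairs the proximal end was more than 2-fold lower at 8 h, on scaled counts, while the distal end lay within 1.5-fold of its 4 h level.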

How the data were processed

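The members, lists and tests were chosen with earlier results of these data known. Per the file headers, the deposited values are unnormalized counts at poly(A) sites in mm9 positions, with 1 scaling factor per library. Reads were aligned with Bowtie (version not given in the sources used), per the submitters' processing notes. The filter column, a read threshold per the file headers, was used as deposited. The authors' deposited table also gives a ribosomes per mRNA score for each site. The 6 gradient columns, whose names do not match the labels of single samples, were not used.

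Counts were fitted with edgeR 4.0.16 in R 4.3.3 (quasi-likelihood F test, robust, 1 mean per time over 6 libraries, authors' factors as scaling) over 17723 sites with at least 50 counts, with Benjamini-Hochberg adjustment over all of them and a threshold of 0.05. The pair model had library terms, an isoform term and isoform by time terms over 1520 pairs; 11 loci whose 2 most abundant ends lay beyond 2000 nt gave no pair. Both were tested on simulated data, with 50 ends or pairs changed per size and direction. Apart from these changes, simulated ends had the same mean at all times and simulated pairs a constant distal share. Of the log2 changes of -1 and 1, 4 and 3 were called for ends and 11 and 7 for pairs. Of those of -2 and 2, 32 and 40 were called for ends and 42 and 46 for pairs. Among unchanged features, 2 of 17523 ends and 5 of 1320 pairs were called. Log2 ratios add a pseudocount of 0.5 to the counts. The SE of an edgeR log2 change was derived from its test, as the absolute change divided by the square root of the quasi-likelihood F statistic. Named ends were, with at least 200 counts at 4 h, the 8 with the highest lower and the 8 with the lowest upper limit of the exact 95% interval of the ratio, and the 6 most abundant at 8 h. Named pairs were the 5 each way by the limit of the odds ratio nearest 1, with at least 100 counts per end at 4 h. The 8 rising calls and the rate examples were named after their values were seen. The reference at hand is of another build than mm9 and positions were not converted, so gene lists and sequences were not used here. Alternatives were library totals, TMM, DESeq2's size factors, DESeq2 1.42.0, 2 straight lines and leaving out a control. Further ones were other minimums, other pairings and a pseudocount of 5. What is called DESeq2's size factors here is the RLE scaling of edgeR, computed over members like TMM and fitted with edgeR. DESeq2 itself was run on ends with the authors' factors and on pairs with library totals. The fit of 2 straight lines, which meet at 4 h, takes its spread also from departures from those lines. With a control left out, its spread comes from those departures alone.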

Additional observations from a re-analysis of the deposited data

Results flagged for a closer look

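Of 15620 sites that fail the filter of the authors' deposited table, and so are not members, 2 held at least 40 counts at 4 h and 11 held at least 40 at 8 h. The 2 with 40 counts at 4 h stood above the controls at 4 h and 8 h. A site on chromosome 9 (minus strand, 15130699, mm9) held 4 counts in each control, 16, 35, 72 and 87 at 1, 2, 4 and 8 h. Its scaled count was 110.0 at 8 h and 81.5 at 4 h, and the authors' deposited table gives it 1.49 ribosomes per mRNA. A site on chromosome 6 (minus strand, 8678789) held 5 and 0 counts in control 1 and control 2, 19, 37, 53 and 32 at 1, 2, 4 and 8 h. Its scaled count was 40.46 at 8 h and 60.0 at 4 h, with 2.13 ribosomes per mRNA in the authors' deposited table. They were named by a rule, at least 40 counts at 4 h in a site that fails the filter. The filter is a read threshold, so counts above the controls may follow in part from this choice.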

How the results depend on the processing

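The direction of the typical late change rests on the scaling. The median late log2 ratio of members was -0.44 with the authors' factors, -0.28 with library totals, -0.030 with TMM and 0.0077 with DESeq2's size factors. It was -0.36 with a minimum of 100 counts at 4 h, -0.52 with at least 80 counts over the controls instead, -0.51 with no minimum at 4 h, and -0.44 without the filter. The 958 falling members became 440 with library totals, 230 with TMM, 190 with DESeq2's size factors, 144 with DESeq2 and 558 with 100 counts, and leaving out a control gave 204 to 1150 (2 straight lines). All falling calls of the other scalings and of DESeq2 were among the 958. With both controls, the fit of 2 straight lines called 676 members as falling, 674 of them among the 958. The 8 rising members became 46 with TMM, 48 with DESeq2's size factors, 0 with DESeq2 (7 at an unadjusted p under 0.05) and 1 with 2 straight lines, and 0 to 8 without a control. A slower late change was called for 49 members, and for 18 with DESeq2, 8 with 2 straight lines, 12 with 100 counts, 248 with 80 control counts and 0 to 34 without a control. A faster one was called for 10, and for 16 with TMM, 2 with DESeq2, 0 with 2 straight lines (357 at an unadjusted p under 0.05 by edgeR) and 0 to 8 without a control. Without control 2, edgeR had 27, 212 and 140 members at an unadjusted p under 0.05 where it called 0 rising, slower and faster. The share of the 100 most abundant ends at 4 h was 33.44% over all sites. Of the named ends, 3 that were not called changed sign: chromosome 19 (34316013) to 0.0131 with TMM and 0.0507 with DESeq2's size factors, chromosome 3 (90418335) to 0.15, 0.40 and 0.44 with totals, TMM and those size factors, and chromosome 15 (78760623) to -0.010 with 2 straight lines and -1.315e-05 without control 2. The cause of these changes was not tested. The median pair shift stayed between -0.035 and -0.011, and 0 pairs were called by any alternative, of which the outermost ends, the linkage within 500 nt and the minimum of 80 control counts for pair calls were chosen after seeing the data. Counts below 100 per end limit single ends. No paired analysis was possible because only the control has more than 1 library, and nothing says that equal replicate numbers mean the same culture.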
